A study of Arabidopsis thaliana with 16 samples.

Results

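The comparison described here set wild-type Arabidopsis thaliana seeds given abscisic acid (ABA) together with glucose against untreated seeds of the same age. It uses 8 of the 16 messenger RNA libraries of the series, assigned to their groups by their labels: the 4 ABA plus glucose libraries and the 4 control libraries. All 8 came from whole germinating seeds of the ecotype Col-0, imbibed in the cold at 4 °C for 3 days and then kept at 22 °C in constant light on diluted Murashige and Skoog medium. At 24 hours after imbibition the treated seeds were moved to that medium in liquid form with 5 µM ABA and 60 mM glucose for 6 hours, and harvest was at 30 hours. The control label names no added compound, and the labels do not say whether control seeds were moved to liquid as well. They name no osmotic control, so an osmotic effect of the sugar, the transfer to liquid and the action of either compound cannot be told apart in this comparison.

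ABA is the hormone that holds seeds dormant and stops germinating seeds from growing on. It binds receptors of the PYR/PYL family, which then block the clade A protein phosphatases 2C (PP2Cs). Release from these phosphatases activates SnRK2 kinases and, through them, transcription factors such as ABI5, which bind ABA-responsive elements (ABREs) in promoters and switch on late embryogenesis abundant (LEA) and storage genes. Glucose feeds the young seedling and also acts as a signal that can repress sugar transport, starvation and photosynthesis genes.

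Control libraries held 9432453 to 13532719 counts and ABA plus glucose libraries 11316410 to 14809612. A count of 0 is compatible with up to 3 counts, here 0.203 to 0.318 CPM (counts scaled to library size), and this limit covers counting error only. The labels call the 4 libraries of each group biological replicates without naming seed batches, so p-values measure the spread between these libraries. The summed level of 8 germinating seed genes was 26819 to 28355 CPM in control and 28732 to 29642 CPM in treated libraries. Most of this sum came from ICL and MLS of the glyoxylate cycle, at means of 23675 and 3515 CPM in control. Pollen and root hair markers were at or under 3 counts. Mature leaf markers, however, summed to 1742 to 1983 CPM in control and 1628 to 1701 CPM in treated libraries. Of the 8 germinating seed genes, 6 are storage or oil genes described with their own list. CRA1, CRC, OLEO1 and OLEO2 were called higher, and SESA1 and SESA2 were not called. Control replicate 1 stood apart from the other controls. It scored 25.7 on the second principal component (9.28% of the variance), against -11.4 to -3.2 for the other controls, and its chi-square per gene against them was 6.85 to 8.28, where other control pairs gave 1.81 to 3.15.

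**Figure D1:**
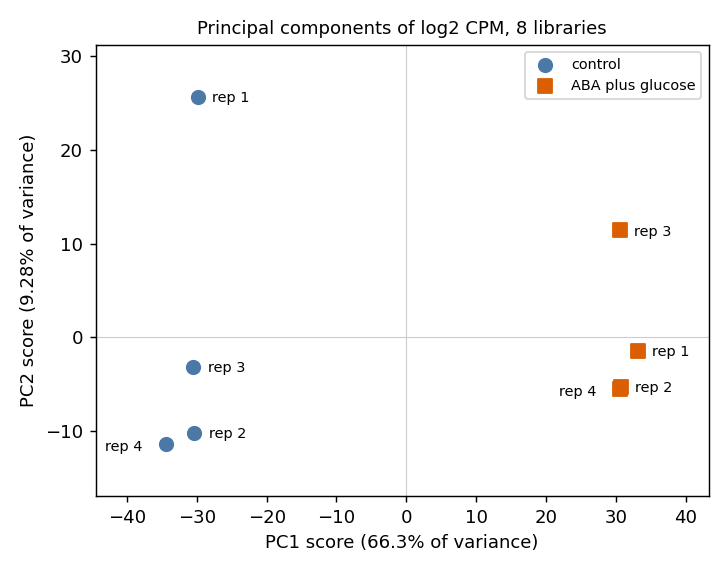
Principal component scores of the 8 libraries from log2 CPM, with circles for control and squares for ABA plus glucose. The first component (66.3% of the variance) separates the groups, and control replicate 1 lies at 25.7 on the second component, away from the other controls.

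Treatment with both compounds for 6 hours changed a large part of the tested genes, mostly by small steps, while a small set of genes rose many-fold. Of 27655 genes in the table, 16834 had enough counts to be tested, and edgeR's quasi-likelihood test called 2018 genes higher (12% of those tested) and 2571 lower (15.3%) at an adjusted p under 0.05. The median change of called genes was 0.43 on the log2 scale, and 64.5% of them changed by less than 1.5-fold. At least 2-fold changes were called for 283 higher and 451 lower genes. Among the steepest changes the order turned: 136 genes were at least 4-fold higher against 93 lower, and 66 were at least 8-fold higher against 18 lower. Levels are given as CPM on library sizes scaled by the trimmed mean of M values (TMM), ± after a mean CPM is the SD over 4 libraries, and ± after a log2 change is its SE. The 12 steepest rises and falls, the 6 largest gains and losses in CPM and up to 2 members per list and direction were named by rule; other members were named after their values were seen.

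In 3955 of the 4589 called genes every treated library lay on the same side of every control library. Over all 16834 tested genes, called or not, this held for 4714. Without control replicate 1 the counts were 2278 higher and 2716 lower.

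**Figure D2:**
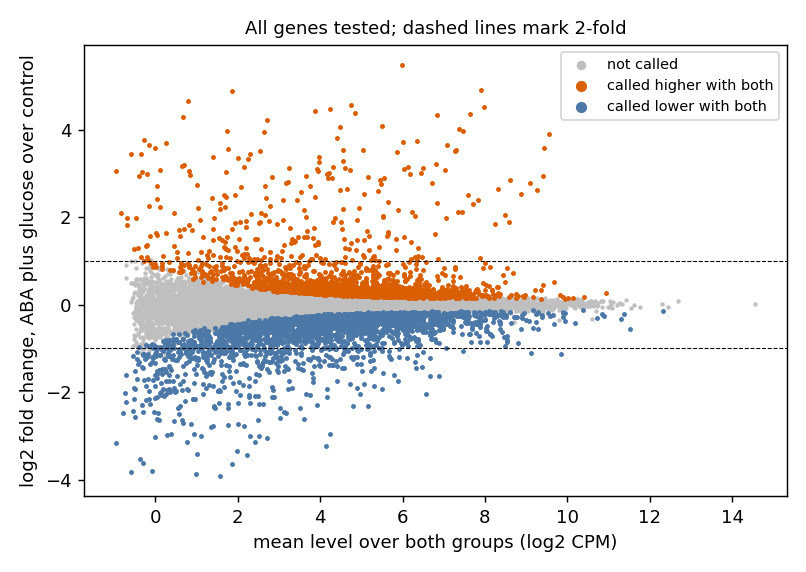
Fitted log2 fold change of ABA plus glucose over control against the mean level in log2 CPM, 1 point per tested gene, with orange for the 2018 genes called higher, blue for the 2571 called lower and grey for the rest. The steepest rises reach beyond 5 on the log2 scale, while the steepest falls stop near -3.9.

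The genes that rose most were led by desiccation protectants. RD29A, which encodes a hydrophilic protein induced by drought, cold and ABA, stood at 3.43, 2.58, 3.03 and 1.796 CPM in the control libraries and at 141, 135, 112 and 108 CPM with both compounds. The groups were far apart, 44.4-fold, with a log2 change of 5.47 ± 0.13 (SE, adjusted p = 4.22e-15). AT2G42560, annotated as an LEA protein, went from 19.0, 13.3, 16.3 and 13.1 CPM to 466, 516, 459.7 and 424 CPM, a log2 change of 4.90 ± 0.10 (SE). EM1 and EM6 encode the small LEA proteins of the Em group, which accumulate in drying seeds. EM1 rose from 20.9 ± 3.73 to 487 ± 30.0 CPM and EM6 from 18.5 ± 3.80 to 381 ± 15.2 CPM, with log2 changes of 4.53 ± 0.096 (SE) and 4.35 ± 0.099 (SE). The oil body protein gene OLEO2 rose by 4.34 ± 0.11 (SE) on the same scale. NADP-ME1, a cytosolic malic enzyme, went from 3.06, 1.67, 2.07 and 1.69 CPM to 54.1, 52.0, 49.9 and 50.1 CPM, again with no overlap.

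The other members of the 12 steepest rises, all with log2 changes of 4.05 to 4.47, were less familiar. PV42B encodes a gamma-type regulatory subunit related to the SNF1 kinase and rose from 1.63 ± 0.479 to 36.3 ± 2.31 CPM. AT5G22470, annotated as an ADP-ribosyltransferase, rose from 5.02 ± 0.389 to 85.0 ± 7.56 CPM. AT5G01300, annotated as a phosphatidylethanolamine-binding protein, rose from 2.46 ± 1.61 to 55.1 ± 4.95 CPM. The last 3, AT4G31830, AT2G38905 and AT3G15280, have no descriptive name in the tables used here and rose by 4.43, 4.21 and 4.05. AT2G38905 shares 115 identical bases with AT2G38900 on the other strand, so reads there could be split between the pair.

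The steepest falls, among genes that had over 3 reads counted in each of the 8 libraries, were spread over transporters, cell surface proteins and enzymes of lipids and sugars. OCT3, an organic cation and carnitine transporter, fell from 6.50, 6.09, 7.90 and 6.66 CPM to 0.980, 0.393, 0.294 and 0.537 CPM, a log2 change of -3.65 ± 0.24 (SE, adjusted p = 1.87e-09). FLA9, a fasciclin-like arabinogalactan protein of the cell surface, stood at 32.8, 31.0, 32.0 and 32.8 CPM in control and at 3.65, 3.85, 3.53 and 2.68 CPM with both compounds. Its log2 change was -3.24 ± 0.10 (SE), and no library of one group came near the other group. KCS19, a ketoacyl-CoA synthase that lengthens fatty acids, fell by 2.97 on the log2 scale. BFRUCT4, the vacuolar acid invertase that splits sucrose, fell from 11.7 ± 1.06 to 1.395 ± 0.333 CPM, a log2 change of -3.05 ± 0.16 (SE). A pair of GDSL-type lipases (AT5G45950 and APG) and the cysteine proteinase AT2G27420 fell by 3.33, 3.14 and 3.43. APG shares 427 identical bases with PAB6 on the opposite strand, so its level is less certain. The remaining 5, among them the transcription factor BZIP61, changed by -3.01 to -2.77.

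**Figure D3:**
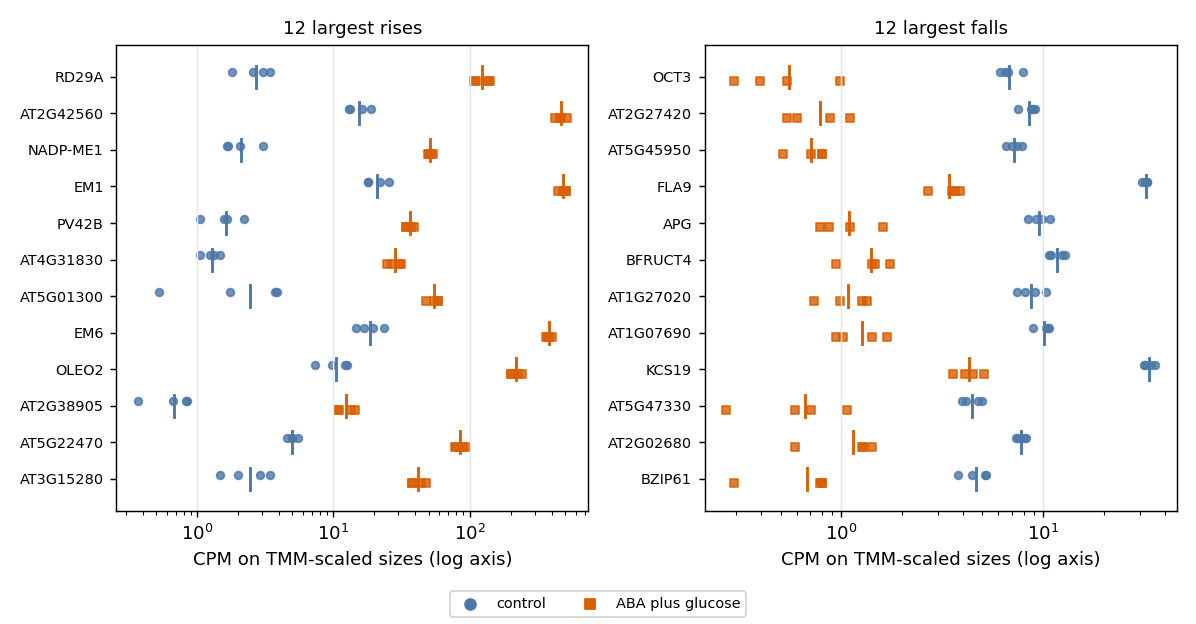
CPM on TMM-scaled library sizes, on a log axis, of the 12 genes with the largest rise (left) and the 12 with the largest fall (right) in each library. Circles stand for control, squares for ABA plus glucose and vertical lines for group means, and the groups do not overlap for any of these genes, by the rule that chose them.

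Promoters of the 3 steepest rises and the 3 steepest falls are shown because ABREs are the sites through which ABA-activated factors act on genes such as these. Each is the 250 bases before the annotated gene start in RefSeq's TAIR10.1, read 5′ to 3′ on the gene's strand. Capitals mark the ABRE core ACGTG on either strand. The order is RD29A (chr5:21240467-21240716, plus strand), AT2G42560 (chr2:17716913-17717162, minus strand), NADP-ME1 (chr2:8595560-8595809, minus strand), OCT3 (chr1:5602536-5602785, plus strand), AT2G27420 (chr2:11727655-11727904, minus strand) and AT5G45950 (chr5:18633791-18634040, plus strand).
RD29A: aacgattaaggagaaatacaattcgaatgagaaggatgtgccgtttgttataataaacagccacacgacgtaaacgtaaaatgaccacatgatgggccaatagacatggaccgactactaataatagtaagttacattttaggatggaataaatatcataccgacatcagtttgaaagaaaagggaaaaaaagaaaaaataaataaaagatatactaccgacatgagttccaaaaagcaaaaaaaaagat
AT2G42560: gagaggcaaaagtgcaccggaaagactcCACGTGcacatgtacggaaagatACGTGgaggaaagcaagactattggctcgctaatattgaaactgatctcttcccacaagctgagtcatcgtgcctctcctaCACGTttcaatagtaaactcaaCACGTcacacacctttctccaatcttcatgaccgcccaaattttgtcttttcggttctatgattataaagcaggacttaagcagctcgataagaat
NADP-ME1: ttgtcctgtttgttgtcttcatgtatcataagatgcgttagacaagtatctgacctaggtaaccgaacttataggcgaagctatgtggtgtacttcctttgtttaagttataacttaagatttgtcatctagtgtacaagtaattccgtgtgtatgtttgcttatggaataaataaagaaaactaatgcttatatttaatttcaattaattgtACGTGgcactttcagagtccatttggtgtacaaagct
OCT3: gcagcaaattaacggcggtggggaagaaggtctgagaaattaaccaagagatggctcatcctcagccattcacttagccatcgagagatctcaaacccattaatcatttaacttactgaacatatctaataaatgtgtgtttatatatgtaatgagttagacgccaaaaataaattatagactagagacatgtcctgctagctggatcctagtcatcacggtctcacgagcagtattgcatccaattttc
AT2G27420: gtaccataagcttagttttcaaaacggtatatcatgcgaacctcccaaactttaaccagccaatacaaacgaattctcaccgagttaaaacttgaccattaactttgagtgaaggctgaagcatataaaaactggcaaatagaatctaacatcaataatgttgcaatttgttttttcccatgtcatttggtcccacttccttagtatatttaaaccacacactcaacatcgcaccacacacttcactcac
AT5G45950: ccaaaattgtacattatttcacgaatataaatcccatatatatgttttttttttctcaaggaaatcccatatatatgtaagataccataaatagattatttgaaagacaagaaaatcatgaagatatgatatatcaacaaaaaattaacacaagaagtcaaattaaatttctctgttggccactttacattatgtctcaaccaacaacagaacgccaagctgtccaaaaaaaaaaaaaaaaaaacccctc
AT2G42560 holds 5 matches in this window, 2 of which overlap in a palindrome, and NADP-ME1 holds 1. RD29A and the 3 falling genes hold none in these 250 bases. Bases further upstream or past the annotated start were not searched, so sites there would be missed.

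In nested groups of genes, the larger the increase, the larger was the share of its promoters with an ABRE core. It was 75.7% of the promoters of genes called at least 4-fold higher (103 of 136), 61.1% of those at least 2-fold higher and 32.9% of all called higher. Genes called lower had 25.8%, those at least 2-fold lower 28.6%, and all tested genes 23.5%. The G-box CACGTG, which contains the ABRE core, was in 42.6% of promoters of genes at least 4-fold higher and in 7.92% of all. RY elements (CATGCA), the sites of B3-domain factors such as ABI3, were in 31.6% against 7.12%. They were also in 11.8% of promoters of genes at least 2-fold lower and in 9.33% of all called lower. Site II (TGGGCC), common in promoters of ribosomal protein and growth genes, was in 4.43% of promoters of genes at least 2-fold lower, in 13.1% of those at least 2-fold higher and in 18.3% of all. The telo box AAACCCTA was scarce in both directions, in 1.55% of the lower group, 1.77% of genes at least 2-fold higher and 3.78% of all. TATCCA, a sugar-response element described in rice amylase genes, was in 15.3% of the lower group, 15.2% of the higher group and 14.2% of all. These shares count letter matches on both strands and were not tested.

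**Figure D4:**
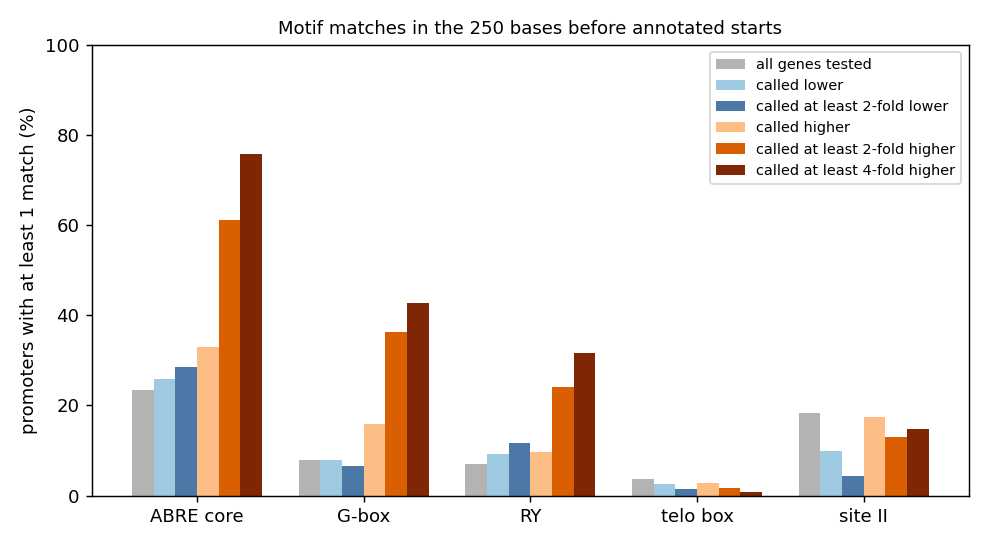
Percent of promoters (250 bases before the annotated start) with at least 1 match to each motif, by group of genes. The bar for ABRE cores climbs from 23.5% of all tested genes to 75.7% of those called at least 4-fold higher.

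At the head of the ABA pathway, most tested receptor genes fell while most of the phosphatase genes rose. Of 12 tested receptor genes, 7 were called lower and 1 higher, with a median log2 change of -0.23. Over all tested genes 12% were called higher and 15.3% lower, with a median of 0.0037, the values beside which the counts of each list stand. PYL6 fell from 46.3, 42.8, 51.6 and 43.6 CPM to 17.8, 21.6, 21.7 and 18.9 CPM, a log2 change of -1.20 ± 0.083 (SE, adjusted p = 3.96e-09). PYL4 fell from 178 ± 8.58 to 90.05 ± 9.63 CPM, and PYR1, at 498, 374, 408 and 387 CPM in control libraries, was at 254, 284, 293 and 247 CPM with both compounds. PYL13 was the 1 receptor called higher, from 1.49 ± 0.478 to 4.32 ± 0.811 CPM. Among the clade A PP2Cs, which hold ABA signalling off, 7 of 8 tested were called higher and 1 lower, with a median of 0.87. AHG1, a phosphatase that acts mainly in seeds, rose from 41.2, 27.2, 26.7 and 28.1 CPM to 142, 129.8, 119.7 and 115 CPM, a log2 change of 2.03 ± 0.11 (SE, adjusted p = 1.85e-10). Control replicate 1 was the highest control here. HAI2 and HAI3 rose by 1.72 and 1.93, while ABI1 fell from 94.4 ± 3.24 to 77.0 ± 2.37 CPM. Without control replicate 1, the phosphatases called higher numbered 6.

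Downstream, ABI5 rose and its relatives moved less. ABI5, the bZIP factor that arrests growth after germination, stood at 60.9, 53.4, 50.8 and 52.4 CPM in control and at 172, 186, 156 and 154 CPM in treated libraries, a log2 change of 1.62 ± 0.074 (SE, adjusted p = 1.37e-11). EEL, a bZIP factor of embryos, rose from 5.35 ± 0.642 to 11.1 ± 0.726 CPM, and ABI3, the B3-domain regulator of seed maturation, rose from 221 ± 26.4 to 303 ± 31.1 CPM. In all, 5 of 12 kinases and transcription factors of the pathway were called higher and 2 lower. The 2 lower were ABI4, from 194 ± 4.72 to 159.9 ± 7.95 CPM, and the kinase gene SnRK2.3, with a log2 change of -0.23. For SnRK2.2 and SnRK2.6, the other main ABA-activated kinases, the log2 estimates were 0.12 ± 0.057 (SE) and 0.12 ± 0.062 (SE) and did not pass the test.

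Genes for making ABA and genes for breaking it down were both among those that rose. Of 11 tested, 7 were called higher and 1 lower, with a median of 0.45. ABA1, which encodes zeaxanthin epoxidase at an early step of synthesis, rose from 25.2, 23.6, 25.0 and 25.0 CPM to 52.6, 51.3, 47.0 and 50.6 CPM, a log2 change of 1.03 ± 0.066 (SE, adjusted p = 1.38e-09). The dioxygenase genes NCED5 and NCED9, which cut the carotenoid precursor, rose from 0.948 ± 0.389 to 1.93 ± 0.309 CPM and from 4.25 ± 0.441 to 6.80 ± 1.15 CPM. CYP707A enzymes inactivate ABA by hydroxylation. CYP707A1 and CYP707A2 rose by 0.71 and 0.93, whereas CYP707A3 fell by 0.51 on the log2 scale.

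LEA proteins and dehydrins, which protect cells during drying, formed the list with the highest median. Of 25 tested members, 22 were called higher and 2 lower, and 21 rose at least 2-fold, with a median log2 change of 2.78. The list was drawn up with earlier results of these libraries known, so its direction is not independent evidence. RD29B rose from 23.6, 17.43, 17.8 and 18.18 CPM to 354, 351, 279.7 and 268 CPM, a log2 change of 4.02 ± 0.11 (SE, adjusted p = 1.77e-14). AT3G15670, an LEA protein, gained more CPM than any other called gene, from 94.6 ± 14.7 to 1417 ± 105 CPM. AT3G17520, LEA7 and LEA4-5 were also among the 6 largest gains in CPM, with log2 changes of 2.95, 2.63 and 2.78. So was AT5G66780, which is outside this list and has no descriptive name here, with a log2 change of 2.54. LEA7 overlaps a gene on the opposite strand. The exceptions were acidic dehydrins known from cold-stressed leaves. ERD10 fell from 23.7, 11.9, 12.8 and 12.2 CPM to 8.46, 9.04, 8.30 and 8.86 CPM, a log2 change of -0.82 ± 0.18 (SE). Control replicate 1 was far above the other controls, and without that library the log2 change was -0.50 (adjusted p = 0.000579). COR47 fell by 0.35, with overlapping groups, and ERD14 had an estimate of 0.10 ± 0.13 (SE), not past the test.

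Tested oil body genes all rose, whereas storage protein genes were mixed. Of 16 tested, 10 were called higher and 0 lower, with a median of 0.88. By edgeR 1 member was lower at an unadjusted p under 0.05, and DESeq2 called 0 lower. All 5 tested oleosins, which coat oil droplets, rose: OLEO1 went from 22.4, 18.4, 23.6 and 14.7 CPM to 268, 255, 254 and 235 CPM, a log2 change of 3.66 ± 0.10 (SE, adjusted p = 1.48e-14), and the others by 4.34, 2.46, 1.76 and 3.01. The caleosin CLO1 rose by 2.07. OLEO2 overlaps a gene on the opposite strand. Cruciferins are the globulins stored in the seed, and of these CRA1 had the lowest p of all genes tested. CRA1 stood at 112, 102, 108 and 104 CPM in control and at 1326, 1247, 1251 and 1295 CPM with both compounds, a log2 change of 3.59 ± 0.056 (SE, adjusted p = 1.35e-17). CRC rose by 1.099, while CRB and CRU2 had estimates of -0.23 ± 0.16 (SE) and -0.26 ± 0.32 (SE) that did not pass. Among the seed storage albumins, SESA5 rose by 0.66 with overlapping groups. SESA1, SESA2, SESA3 and SESA4 had estimates between -0.53 and 0.19, none past the test. PAP85 of the same list rose by 0.50 ± 0.10 (SE). PER1, a peroxiredoxin of maturing and dormant seeds outside these lists, rose from 11.2 ± 1.71 to 152 ± 9.72 CPM.

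Among dormancy and maturation regulators, which have differing roles, 3 were called higher and 3 lower of 8 tested. Over all settings tried, 1 to 3 were called higher and 2 to 3 lower. VAL1 was called higher by 0.17 ± 0.063 (SE, edgeR adjusted p = 0.0498), with overlapping groups. MFT, which encodes a phosphatidylethanolamine-binding protein active in seed ABA signalling, went from 1.12, 0.167, 1.403 and 0.634 CPM to 7.48, 11.1, 8.96 and 7.38 CPM, a log2 change of 3.32 ± 0.28 (SE, adjusted p = 4.87e-08). MFT shares 606 identical bases with AT1G18090 on the opposite strand, so reads of the pair may be exchanged. SOM, a zinc finger repressor of light-dependent germination, rose from 261, 253, 274 and 273 CPM to 486, 502, 447 and 458 CPM, a log2 change of 0.83 ± 0.055 (SE). HEC2, a helix-loop-helix factor that binds and inhibits PIF1, fell from 6.27, 4.84, 6.87 and 7.08 CPM to 1.78, 1.34, 1.395 and 1.81 CPM, a log2 change of -1.98 ± 0.18 (SE). SPT and PIF1, also helix-loop-helix factors, fell by 0.50 and 0.21. The groups overlapped for PIF1, and its edgeR adjusted p was 0.0449. DOG1, FUS3, LEC1 and LEC2, master genes of dormancy and embryogenesis, had too few counts in either group to be tested.

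Genes of gibberellin, the hormone that drives germination, were called in both directions. Of 24 tested genes, 6 were called higher and 8 lower, with a median of -0.0048. The last synthetic step is run by GA3ox1 and GA3ox2. GA3ox2 fell from 99.4, 95.7, 97.5 and 89.5 CPM to 47.6, 63.7, 52.5 and 60.0 CPM, a log2 change of -0.77 ± 0.078 (SE, adjusted p = 6.26e-07), and GA3ox1 fell by 0.80. GA20ox3, which acts a step earlier, rose by 0.79. Its relatives GA20ox1 and GA20ox2 had estimates of 0.20 ± 0.10 (SE) and 0.22 ± 0.13 (SE), neither past the test. Of the receptors, GID1A and GID1C rose by 0.26 and 0.30. DELLA proteins are the repressors that gibberellin removes: RGL2, the main one in seeds, rose from 242, 228, 222 and 236 CPM to 323, 306, 318 and 310.1 CPM, a log2 change of 0.44 ± 0.051 (SE), while RGA and RGL1 fell by 0.34 and 0.50. GAI and RGL3, also DELLA genes, had estimates of 0.0043 ± 0.061 (SE) and -0.014 ± 0.050 (SE), not past the test. Of 5 tested GASA peptide genes, which respond to gibberellin, 4 fell, GASA1, GASA4, GASA6 and GASA14 by 0.97, 0.31, 0.29 and 0.56. GASA3 went the other way, from 1.05, 1.00, 0.738 and 0.423 CPM to 8.90, 7.78, 9.99 and 9.33 CPM, a log2 change of 3.43 ± 0.19 (SE).

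Most tested sugar carriers fell. Of 10 tested, 7 were called lower and 0 higher by edgeR, with a median log2 change of -0.51. At an unadjusted p under 0.05, 1 was higher, DESeq2 called 0 higher, and limma on the TPM-like values called 1 higher, as did edgeR without control replicate 1. STP4 and STP1 are proton-coupled importers of glucose. STP4 stood at 115, 113, 103 and 115 CPM in control and at 45.7, 46.6, 41.6 and 45.5 CPM with both compounds, a log2 change of -1.32 ± 0.062 (SE, adjusted p = 1.76e-11). STP1 fell by 1.104, but it shares 314 identical bases with AT1G11270 on the other strand. The sucrose carrier SUC1 fell from 344 ± 26.9 to 215 ± 7.34 CPM, and the polyol transporter PMT5 by 0.65. Of the 17 SWEET sugar exporters only SWEET1 and SWEET15 had enough counts to be tested; SWEET15 fell by 0.63, and SWEET1 had an estimate of 0.17 ± 0.075 (SE), not past the test.

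Genes known to be repressed by sugar moved less uniformly. Of 18 tested, 9 were called lower and 2 higher, with a median of -0.35. DIN10, a raffinose synthase family gene that rises in the dark, went from 1067, 1283, 1309 and 1357 CPM to 574, 578, 574 and 577 CPM, a log2 change of -1.12 ± 0.064 (SE, adjusted p = 3.03e-10) and the second largest loss in CPM. DIN10 overlaps a gene on the opposite strand. EXO, which promotes cell expansion, fell from 52.8 ± 4.54 to 21.8 ± 1.98 CPM. The bZIP factor bZIP63, a target of the energy kinase SnRK1, fell from 19.1 ± 1.32 to 9.85 ± 0.586 CPM, and bZIP1 and bZIP53, which also serve energy signalling, fell by 0.57 and 0.26. DIN9, a phosphomannose isomerase, fell by 1.31. The 2 that rose act in breakdown of branched-chain amino acids: MCCA by 0.46 and ETFQO by 0.32. ETFQO was not called without ABA plus glucose replicate 1, where its log2 change was 0.28 (adjusted p = 0.0532). MCCA shares 300 identical bases with AT1G03100 on the opposite strand, and ETFQO overlaps a gene on the opposite strand. ASN1, the classic sugar-repressed asparagine synthetase, stood at 0.759 ± 0.404 (SD) and 1.43 ± 0.272 (SD) CPM and had an estimate of 0.86 ± 0.33 (SE), not past the test.

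Of genes known to be induced by sugar, 4 of 8 tested were called higher and 1 lower, with a median of 0.34. The nitrate reductase gene NIA2 rose from 42.4, 41.7, 34.6 and 37.7 CPM to 60.2, 62.6, 60.7 and 69.8 CPM, a log2 change of 0.70 ± 0.075 (SE, adjusted p = 1.44e-06), and NIA1 rose by 0.42. CHS, chalcone synthase at the entry to flavonoids, rose by 0.39. APL3, a large subunit of the enzyme that makes ADP-glucose for starch, fell by 0.45 with overlapping groups and was not called without ABA plus glucose replicate 3 or without replicate 4, where the log2 changes were -0.34 (adjusted p = 0.0506) and -0.40 (adjusted p = 0.0519). GPT2, the glucose-phosphate carrier of plastids, had an estimate of 0.18 ± 0.074 (SE) that did not pass.

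Genes for raffinose sugars and proline, both protectants in dry tissue, were mixed: 4 of 10 tested were called higher and 3 lower. GOLS2, galactinol synthase at the entry to raffinose, rose from 0.597, 0.250, 0.517 and 0.423 CPM to 5.52, 5.03, 4.19 and 4.63 CPM, a log2 change of 3.38 ± 0.24 (SE, adjusted p = 6.09e-09). RS4 rose by 3.03 from near the limit of detection, and RS5, the main raffinose synthase of stressed leaves, fell by 0.67. In proline metabolism, the synthesis gene P5CS2 rose by 0.25, while PRODH1, which starts proline breakdown, fell by 0.33. Other members went the opposite way within each branch. The breakdown gene P5CDH rose by 0.32, and the synthesis gene P5CS1 had an estimate of -0.32 ± 0.13 (SE), not past the test.

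The machinery that turns stored oil into sugar changed little. The glyoxylate cycle and peroxisomal beta-oxidation had 4 of 21 members called lower and 0 higher by edgeR, at a median of -0.048. The higher count was also 0 at an unadjusted p under 0.05 and in DESeq2. ICL, isocitrate lyase, stood at 23367, 23111, 24804 and 23418 CPM in control and at 24240.5, 24426, 23538 and 23548 CPM in treated libraries, ranges that overlapped. Its log2 estimate was 0.016 ± 0.042 (SE, adjusted p = 0.823). MLS and PCK1, malate synthase and the carboxykinase that leads to sugar, had estimates of -0.048 ± 0.046 (SE) and -0.055 ± 0.048 (SE). SDP1, the lipase that starts oil breakdown, fell by 0.26, and the oxidases ACX2 and ACX3 fell by 0.28 and 0.26. ACX3 shares 98.8% identity over 677 bases with AT3G06690, so its level is less certain. Read shares gave a similar picture: the list took 4.02% of counts in control and 3.97% with both compounds (exact two-sided permutation test, p = 0.343).

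Most tested photosynthesis genes fell, the greater part by less than 2-fold. Among 25 tested genes of light harvesting and carbon fixation, 18 were called lower and 1 higher, with a median log2 change of -0.44; without control replicate 1, 15 were called lower. RBCS1B, a small subunit of Rubisco, fell from 5.00, 7.004, 6.57 and 6.76 CPM to 2.05, 1.65, 1.69 and 2.01 CPM, a log2 change of -1.76 ± 0.17 (SE, adjusted p = 2.83e-07). RBCS3B fell from 268 ± 18.8 to 171 ± 12.8 CPM, while RBCS1A had an estimate of -0.14 ± 0.053 (SE), just short of the threshold. RCA, which keeps Rubisco active, and the Calvin cycle genes PRK and SBPASE fell by 0.61, 0.69 and 0.44. LHCB3, LHCA1 and LHCB1.5 of the antennae fell by 1.13, 1.13 and 1.17. Mature leaf markers are 3 of these same genes and summed to 1742 to 1983 CPM in control and 1628 to 1701 CPM in treated libraries. Small subunit and antenna genes have near-identical copies, and the authors' estimated counts could be split among them. The single higher call, LHCB4.1 at 0.18 ± 0.063 (SE), was lost in 11 of the alternative settings. Transcripts encoded in plastids did not follow: 0 of 74 tested were called in either direction by edgeR, with 1 lower and 0 higher at an unadjusted p under 0.05 and 0 by DESeq2, and 2 were called higher without control replicate 1. Of 35 tested mitochondrial transcripts 0 were called by edgeR, with 1 lower and 0 higher at an unadjusted p under 0.05, and DESeq2 called 1 lower.

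Most tested enzymes that remodel the growing cell wall fell. Xyloglucan endotransglucosylase/hydrolases (XTHs) cut and rejoin the hemicellulose that ties cellulose fibres, and 14 of 20 tested were called lower and 1 higher, with a median log2 change of -0.83. XTH33 fell from 8.14, 6.17, 7.01 and 6.45 CPM to 1.78, 0.865, 0.514 and 1.14 CPM, a log2 change of -2.72 ± 0.23 (SE, adjusted p = 5.24e-08). XTH4 fell from 33.6, 31.9, 34.1 and 30.9 CPM to 10.5, 8.65, 9.77 and 10.1 CPM, and XTH18 and XTH23 fell by 1.90 and 2.48. XTH18 shares 90.7% identity over 1225 bases with XTH17, which also fell. Pectin methylesterases and their inhibitors had 14 of 28 tested called lower and 2 higher; PME3 fell from 520.2, 471, 434 and 473 CPM to 223, 262, 248 and 251 CPM, a log2 change of -0.95 ± 0.064 (SE). BXL2, a beta-xylosidase of the wall, fell from 762 ± 26.4 to 353 ± 16.1 CPM, the fifth largest loss in CPM. Alpha-expansins, which loosen walls during radicle growth, were mixed, with 4 of 11 tested called lower, 2 higher and a median of 0.029. EXPA1 and EXPA8 fell by 0.30 and 0.61, EXPA15 rose by 0.45, and EXPA2, active in the endosperm at germination, had an estimate of 0.029 ± 0.058 (SE).

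Most tested secreted peroxidases and surface lipid enzymes fell as well. Of 15 tested class III peroxidases, which stiffen or loosen walls with hydrogen peroxide, 13 were called lower and 1 higher, with a median of -0.64. PER69 fell from 69.8, 52.9, 52.4 and 64.9 CPM to 10.9, 11.01, 12.6 and 13.1 CPM, a log2 change of -2.33 ± 0.10 (SE, adjusted p = 9.52e-12), and PER62 fell by 1.92. The 1 higher was PER52, from 0.446 ± 0.0921 to 1.401 ± 0.682 CPM. GDSL lipases, several of which act on cutin and other surface lipids, had 22 of 38 tested called lower and 5 higher, with a median of -0.45. AT5G45670 fell from 159.9, 141, 156 and 159 CPM to 52.6, 51.4, 50.9 and 44.9 CPM, a log2 change of -1.63 ± 0.066 (SE). Lipid transfer proteins had 10 of 25 tested called lower and 4 higher. Epidermis markers moved with these groups: all 3 were called lower (FDH by 0.72, PDF1 by 0.40 and ATML1 by 0.24, the last pair with overlapping groups), and their summed level was 646 to 774 CPM in control and 471 to 543 CPM in treated libraries. Their part in the fall of surface and wall genes was not tested, and in whole seeds fewer cells of a type and less RNA per cell cannot be told apart.

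Water channels and auxin genes had 47.6% and 35.5% of their tested members called lower, beside 15.3% of all tested genes. Aquaporins had 10 of 21 tested called lower and 2 higher. PIP2-7, a channel of the plasma membrane, fell from 372, 362, 369 and 373 CPM to 281, 275, 293 and 285 CPM, a log2 change of -0.38 ± 0.048 (SE), and NIP1-1 fell by 1.39. Both that rose are the seed-specific channels of the storage vacuole: TIP3-1 went from 4.78, 5.00, 5.02 and 2.11 CPM to 53.4, 35.5, 44.3 and 37.6 CPM and TIP3-2 rose by 2.05. TIP3-1 shares 290 identical bases with AT1G73200 on the opposite strand. Of 31 tested SAUR and Aux/IAA genes, which respond quickly to auxin, 11 were called lower and 1 higher, and without control replicate 1, 11 lower and 2 higher. Over all settings tried, 8 to 13 were called lower. SAUR77 and IAA16 fell by 2.27 and 0.99.

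**Figure D5:**
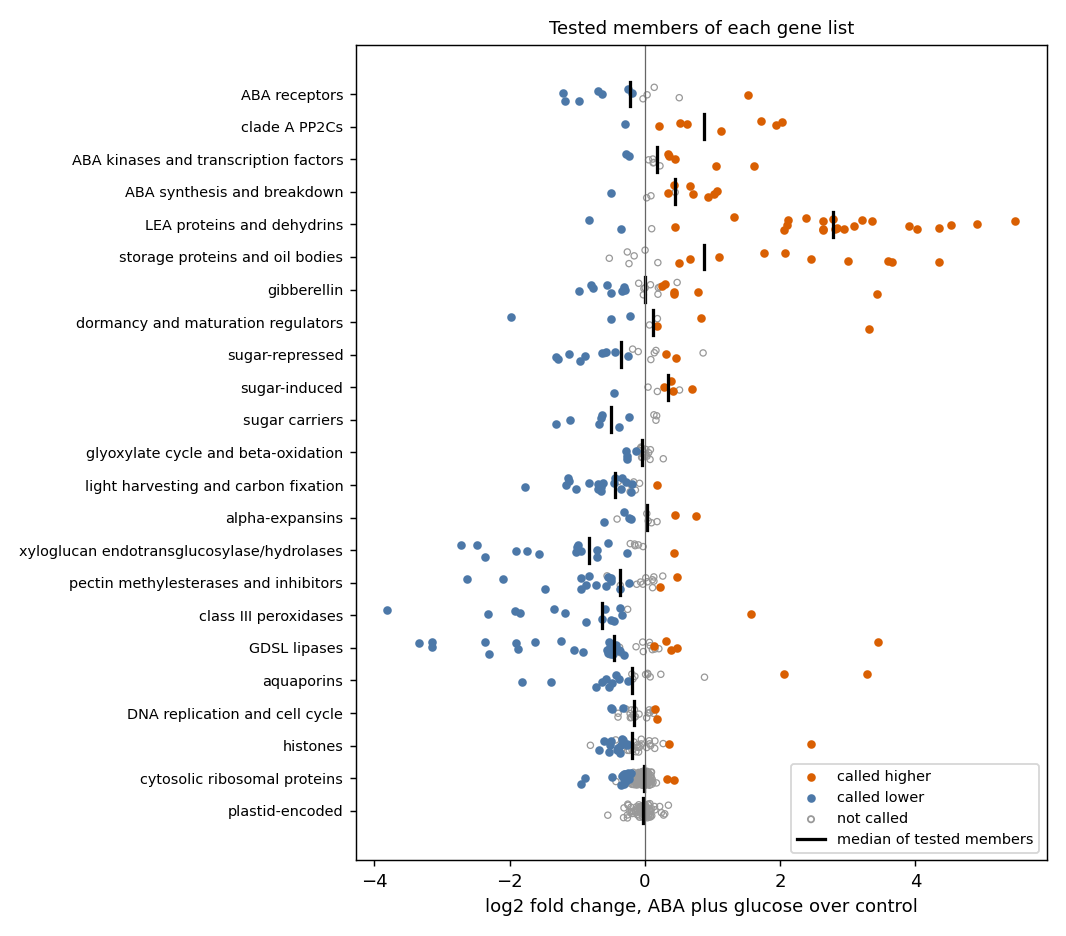
Fitted log2 fold change of ABA plus glucose over control for every tested member of 23 gene lists, with orange for called higher, blue for called lower, open grey for not called and a black bar for the median. LEA proteins reach a median of 2.78, XTHs lie at -0.83, and cytosolic ribosomal and plastid-encoded genes cluster near 0.

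Most tested genes of DNA replication, the cell cycle and protein synthesis were not called, but neither were 12245 of all 16834 tested genes. In the DNA replication and cell cycle list 18 of 23 were not called, so this alone does not set that list apart. Of 39 histone genes, 14 (35.9%) were called lower, beside 15.3% of all tested genes. DNA replication and cell cycle genes had 3 of 23 tested called lower and 2 higher; PCNA1, the replication clamp, fell from 24.1 ± 1.52 to 17.0 ± 0.836 CPM, and CYCD1;1 and TSO2 fell by 0.48 and 0.32. Without control replicate 1 the counts in this list were 5 lower and 1 higher. Histone genes had 2 called higher, with a median log2 change of -0.19 over the list and core histones such as HTA10 and HTA13 down by 0.67 and 0.61. Of 196 tested cytosolic ribosomal protein genes, 16 were called lower and 2 higher at a median of -0.014. Without control replicate 1, histones had 12 lower and 5 higher, and ribosomal protein genes 14 lower and 5 higher. Many ribosomal and histone genes have near-identical copies, so single members are uncertain. For ribosome biogenesis genes the counts were 3 lower and 0 higher of 26 by edgeR, with 0 higher at an unadjusted p under 0.05 and in DESeq2, and 5 lower and 2 higher without control replicate 1. Heat shock genes, taken as a sign of handling stress, had 5 of 6 called lower and 0 higher by edgeR, and 0 higher both at an unadjusted p under 0.05 and in DESeq2. HSP90.1 fell from 61.4, 44.9, 45.4 and 47.8 CPM to 35.9, 32.2, 37.2 and 26.6 CPM.

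Among the largest losses in CPM were genes with small fold changes. CP1, a papain-type cysteine protease of germinating seeds, fell from 3546, 3291, 3659 and 3504 CPM to 2298, 2497, 2425 and 2281 CPM, a log2 change of -0.56 ± 0.050 (SE, adjusted p = 1.28e-07). BGLU23, the beta-glucosidase of endoplasmic reticulum bodies also known as PYK10, fell by 0.33, and ACO3, a mitochondrial aconitase, by 0.22. BGLU23 shares 107 identical bases with AT3G09250 on the opposite strand. MED37E, known as the cytosolic chaperone HSC70-1, fell by 0.15, a call that was lost without ABA plus glucose replicate 4, where the log2 change was -0.15 (adjusted p = 0.0531). Its estimated counts carry decimals in all 8 libraries. MAN7, a mannanase that softens the endosperm around the radicle, rose from 38.6, 36.5, 42.8 and 41.1 CPM to 112, 116, 97.8 and 102 CPM, a log2 change of 1.43 ± 0.071 (SE). MAN7 overlaps AT5G66470 on the same strand and shares 91.8% identity over 194 bases with AT1G03560, so its level is less certain. The 4 endosperm markers, of which MAN7 is 1 and ZOU was at or under 3 counts, summed to 1081 to 1276 CPM in control and 1207 to 1381 CPM in treated libraries, and their part in the rise of MAN7 was not tested.

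As a share of all counts, the LEA list took 0.134% ± 0.0219 (SD, n = 4) in control and 0.921% ± 0.0609 (SD, n = 4) with both compounds, a ratio of 6.85. The storage and oil body list took 0.0305% ± 0.00492 (SD, n = 4) in control and 0.215% ± 0.00511 (SD, n = 4) with both compounds, a ratio of 7.04. Light harvesting and carbon fixation genes took 0.258% ± 0.0132 (SD, n = 4) in control and 0.217% ± 0.00303 (SD, n = 4) with both compounds, and expansins, XTHs and pectin enzymes together 0.733% ± 0.0217 (SD, n = 4) in control and 0.610% ± 0.00829 (SD, n = 4) with both compounds. In these 4 classes the libraries of the groups did not overlap, and the exact two-sided permutation test gave p = 0.0286, the smallest that 4 libraries against 4 allow. After Benjamini-Hochberg adjustment over 8 classes this was 0.0571, so no class passed a threshold of 0.05. The lists behind these classes were chosen with earlier results of these data known, so these p-values are not independent evidence. Plastid-encoded transcripts took 0.851% ± 0.148 (SD, n = 4) in control and 0.831% ± 0.0813 (SD, n = 4) with both compounds, with an exact permutation p of 0.886, and cytosolic ribosomal proteins 12.8% ± 0.568 (SD, n = 4) in control and 12.6% ± 0.628 (SD, n = 4) with both compounds, with an exact permutation p of 0.83.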

How the data were processed

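Messenger RNA of whole wild-type seeds was measured in 4 control and 4 ABA plus glucose libraries, grouped by their labels. Per the labels' protocols, RNA was taken with a plant kit, treated with DNase and made into poly(A) libraries that were read paired-end. The submitters' processing notes name Trimmomatic 0.38, kallisto 0.44.0 and sleuth; the genome build is not given in the sources used here. The table deposited by the authors is headed as raw, but 6.67% to 8.16% of its values in these libraries carry decimals, so it was treated as estimated counts and rounded. The deposited per-sample columns headed TPM sum to 978351 to 1037286 and were treated as a signal, used only in an alternative test. The 16 columns of other samples were not used.

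The main test was edgeR 4.0.16 (R 4.3.3) with TMM scaling, filterByExpr at a minimum count of 10, the quasi-likelihood F-test on these 8 libraries and Benjamini-Hochberg adjustment over all 16834 tested genes. A gene was called at an adjusted p under 0.05, and SEs were taken from the fold change and its F value. Genes outside the filter, 10821 in all, were not tested. The script was tested on simulated data. Alternatives changed the scaling, filter, model, libraries and tool (DESeq2 1.42.0, limma 3.58.1 with a pseudocount of 0.5). The counts within lists under each alternative were added after seeing the data, and PER1, a peroxiredoxin, was then taken out of the class III peroxidases.

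The rule named the 12 largest rises and falls among called genes whose groups do not overlap and whose count exceeds 3 in all libraries. It added the 6 largest gains and losses in CPM and, in each list and direction, the 2 called members of lowest p. The comparison and the lists were chosen with earlier results of these data known. Promoters came from RefSeq TAIR10.1, matched by gene ID for 27445 nuclear genes, with motif shares over 16724 tested ones. Whether counting used strand is not given in the sources used here, so overlapping genes on opposite strands are uncertain. MAN7, EEL and TSO2 each overlap a gene on the same strand, so their levels are uncertain too.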

Additional observations from a re-analysis of the deposited data

Results flagged for a closer look

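In 17 of 276 groups of 4 libraries that were examined, 1 library lay far from the other 3. Chance alone flags about 1 in 20 such groups. Control replicate 1 was the library set apart in 8 of the 17, and its values are given first. AHG1 was at 41.2 CPM there against 26.7 to 28.1 in the other controls, and ERD10 at 23.7 against 11.9 to 12.8. The ribosomal protein gene ARP2 was at 56.6 CPM against 48.4 to 49.4, and AT1G54770 at 49.4 against 38.3 to 40.1. CYP707A3, SIP2 and SPT were lowest in this library, at 19.8 CPM against 20.9 to 21.0 for CYP707A3, 358 against 414 to 424 for SIP2 and 77.2 against 85.4 to 86.1 for SPT. Cytosolic ribosomal protein genes took 13.6% of its counts against 12.4% to 12.6% in the other controls.

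Elsewhere among the controls, ABA1 was lowest in replicate 2 at 23.6 CPM against 25.0 to 25.2. XTH26 was lowest in replicate 3 at 4.65 CPM against 5.81 to 6.00, and TIP3-1 was lowest in replicate 4 at 2.11 CPM against 4.78 to 5.02. Control replicate 4 scored -34.3 on the first principal component, where the other controls scored -30.5 to -29.9.

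Among the ABA plus glucose libraries, replicate 2 was highest for CYP707A3 at 16.2 CPM against 13.8 to 14.1, for PRODH1 at 88.5 against 75.7 to 77.4 and for EXPA8 at 232 against 201 to 206. BZIP61 was lowest in replicate 3 at 0.294 CPM against 0.786 to 0.805. Replicate 1 scored 33.1 on the first component against 30.6 to 30.7 in the others.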

How the results depend on the processing

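The counts of 2018 higher and 2571 lower genes stayed within 1.5 times under each of the 17 alternatives. Leaving out 1 library at a time gave 1490 to 2278 higher and 2170 to 2716 lower genes. DESeq2 called 1760 higher and 2158 lower, and limma on the TPM-like values 1824 and 2455. Upper-quartile scaling gave 1652 higher and 2855 lower, so that 36.7% of called genes were higher against 44.0% with TMM. Requiring 10 counts in every library lowered the number of genes called at least 2-fold lower from 451 to 286, since fewer genes were tested. Of 2126 alternative values for 126 named genes, 2077 kept direction and call, 49 kept direction but lost the call, in 10 genes (MED37E, ETFQO, APL3, LHCB4.1, CDKA;1, CYCD2;1, AT1G54770, XTH26, AT1G14890 and PME31), and 0 reversed. No pairing by replicate number was visible: same-numbered libraries correlated at -0.050 to 0.066, and 1 of 4 numbers matched itself best. So few values cannot exclude pairing. With a replicate block 1885 genes were higher and 2456 lower. Genes under the filter could not be tested at this depth.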

Other observations

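Some genes outside the lists above, chosen after their values were seen, belong to the brakes and stress outputs of ABA signalling. AFP1 encodes a protein that binds ABI5 and promotes its removal, and it went from 5.38, 5.34, 6.28 and 5.28 CPM in control to 19.2, 17.3, 15.1 and 14.6 CPM with both compounds, a log2 change of 1.56 ± 0.12 (SE, adjusted p = 1.03e-08). Its relatives AFP2, AFP3 and AFP4 had log2 changes of 0.54 ± 0.089 (SE), 0.70 ± 0.13 (SE) and -0.50 ± 0.079 (SE). HVA22B, a membrane protein gene of the ABA-induced HVA22 family, rose from 27.2, 25.8, 24.3 and 22.8 CPM to 325, 243, 297 and 273 CPM, a log2 change of 3.50 ± 0.089 (SE, adjusted p = 6.43e-15). TSPO, a membrane protein that binds haem and is induced by stress, rose by 2.99 ± 0.097 (SE) on the log2 scale. The homeodomain genes ATHB-7 and ATHB-12, a related pair that responds to water deficit, went opposite ways. ATHB-7 went from 2.09, 1.33, 1.11 and 0.951 CPM to 3.74, 4.48, 3.82 and 3.69 CPM, a log2 change of 1.48 ± 0.22 (SE), and ATHB-12 from 7.62, 6.59, 5.91 and 7.82 CPM to 4.99, 3.62, 3.67 and 4.43 CPM, a log2 change of -0.74 ± 0.14 (SE).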
